A study of Arabidopsis thaliana with 28 samples.

Results

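The change in transcript level between 0.25 h and 6 h was compared between shoots and roots of Arabidopsis thaliana plants of the accession Col-0 that had been exposed to UV-B. The comparison took 8 of the 28 arrays of the series, 2 for each tissue at each of the 2 times, and covered all 22746 probe sets that were not array controls. For each probe set the change in roots was subtracted from the change in shoots, and the probe set was then sorted by which tissue changed and in which direction. A positive tissue difference therefore means that the 6 h change was more upward, or less downward, in shoots.

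All 4 groups came from plants that the labels describe as 16 days old, grown on Murashige and Skoog medium with 16 h days. Every plant received UV-B from a Philips TL40W/12 lamp at 1.18 W/m2 for 15 min, beginning 3 h after the start of the light period. Shoots or roots were taken at the labelled times, so the groups were shoots at 0.25 h, shoots at 6 h, roots at 0.25 h and roots at 6 h. No array of unexposed plants was analysed here, and the 0.25 h samples served as the reference within each tissue. The 6 h samples were also taken at a later hour of the light period than the 0.25 h samples, and the effects of UV-B and of the hour of day cannot be told apart in this comparison. Nothing in the labels tells if the 2 replicates of each group were grown apart, and the p-values therefore reflect the spread among these arrays alone, which may be technical.

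UV-B is the short-wave ultraviolet part of sunlight. It is absorbed by DNA, proteins and membranes, and plants also perceive it through the photoreceptor UVR8, which acts with the ubiquitin ligase COP1 and the transcription factors HY5 and HYH to induce flavonoid sunscreens. Strong UV-B in addition sets off general stress programs, among them detoxification by glycosyltransferases and glutathione transferases, responses to impaired mitochondria, and the unfolded protein response of the endoplasmic reticulum. Shoots carry the photosynthetic machinery and take up light directly, while roots supply water and nutrients and normally grow in the dark.

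Signals were Affymetrix MAS5 values, a summary of the brightness of the probes for each transcript on a linear scale, and array medians of the 8 arrays lay between 36.8 and 46.7. Changes are given as log2 of the signal plus 9.58, a scale that understates changes of weak transcripts. Across probe sets, Pearson's r between the 2 replicates was 0.982 for shoots at 0.25 h and 0.990 to 0.993 for the other 3 groups. The 0.25 h shoot arrays stood apart in 1 respect. Among 10865 probe sets above the array median on both of them, 65 were at least 2-fold higher on replicate 1 and 9 on replicate 2, against at most 11 in either direction in each of the other 3 groups. The photosynthesis genes that could be named had signals of 300 to 6236 on the 4 shoot arrays and of 17.8 to 223 on the 4 root arrays. The 3 root markers that could be named, of 12 written, went the other way. EXPA7 and EXPA18, expansins of root hair cells, gave 57.9 to 96.1 in roots and 4.87 to 20.8 in shoots, and PYK10, a root beta-glucosidase, gave 3150 to 3538 in roots and 543 to 928 in shoots.

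The 6 h change was larger and more widespread in shoots than in roots. In shoots 4948 probe sets rose (21.8% of those tested) and 5299 fell (23.3%) between 0.25 h and 6 h, by limma's moderated test at an adjusted p under 0.05. In roots 1071 rose (4.71%) and 1204 fell (5.29%). Calls of at least 2-fold numbered 2845 in shoots and 315 in roots. The root calls of 2275 in both directions depended on each root array, at 1034 to 1351 with any 1 of the 4 left out, while the shoot calls stayed between 8637 and 9311 with any 1 shoot array left out. The standard deviation of the change over all probe sets was 0.725 log2 units in shoots and 0.325 in roots, while the median change was near 0 in both (-0.05 and -0.04). In tissue samples, fewer cells of a type and less RNA per cell cannot be told apart.

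The tissue difference itself was called for 3757 probe sets in the upward direction (16.5%) and 3513 in the downward direction (15.4%), with a median standard error of 0.21 log2 units. At least 2-fold were 1528 of the upward and 1179 of the downward differences. At the edge of the test, the last probe set inside had a difference of 0.42 (adjusted p 0.0496). The first one outside had a difference of 0.44 with a larger standard error.

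The sort gave 5635 shoot-only probe sets (24.8%), called in shoots and not in roots with the tissue difference also called. It gave 1175 shared ones (5.17%), called in both tissues in 1 direction, 449 root-only ones (1.97%) and 336 opposite ones (1.48%), called in both tissues in opposite directions. A further 311 had a called difference and no call in either tissue. For 3416 probe sets a call in 1 tissue came without a called difference, 3101 in shoots and 315 in roots, and these could not be assigned to 1 tissue. The remaining 11424 had no call. The sort uses the same tests, so these sizes describe the classes and are not a further result.

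**Figure D1:**
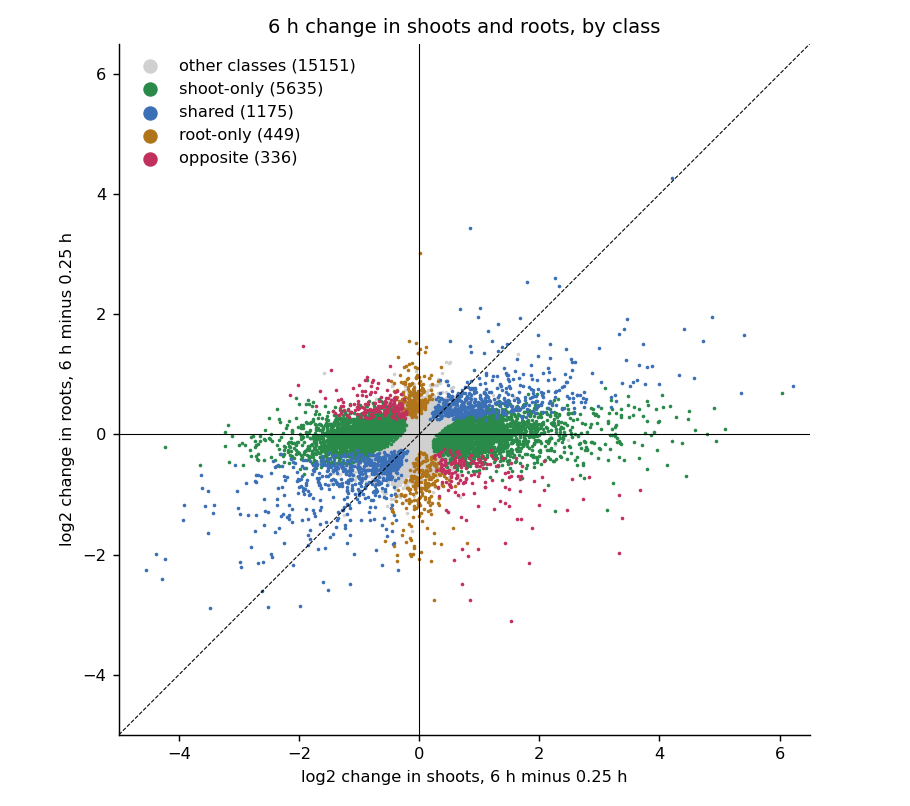
Each point is 1 of 22746 probe sets, with its log2 change from 0.25 h to 6 h in shoots on the x axis and in roots on the y axis, coloured by class; the dashed line marks equal changes. The cloud is wider along the shoot axis, where changes reached 6.22, than along the root axis, and the 336 opposite probe sets fill the upper left and lower right corners.

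A probe set was taken as near background in a tissue when it lay below the array median on all 4 arrays of that tissue. This held for 43.6% of all probe sets in shoots and 46.1% in roots. Among the shoot-only probe sets, 1469 (26.1%) were near background in roots and 4027 (71.5%) in neither tissue. The share differed by direction: 971 of the 2732 that fell were near background in roots and 498 of the 2903 that rose. Among the root-only probe sets, 199 of 449 (44.3%) were near background in shoots, 135 of the 227 that fell and 64 of the 222 that rose. For these probe sets a further fall in the dim tissue could hardly have been measured. Near background in both tissues were 351 of the 1469 shoot-only and 63 of the 199 root-only probe sets. Of the opposite probe sets, 275 of 336 (81.8%) were near background in neither tissue, and of the shared ones 970 of 1175 (82.6%).

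**Figure D2:**
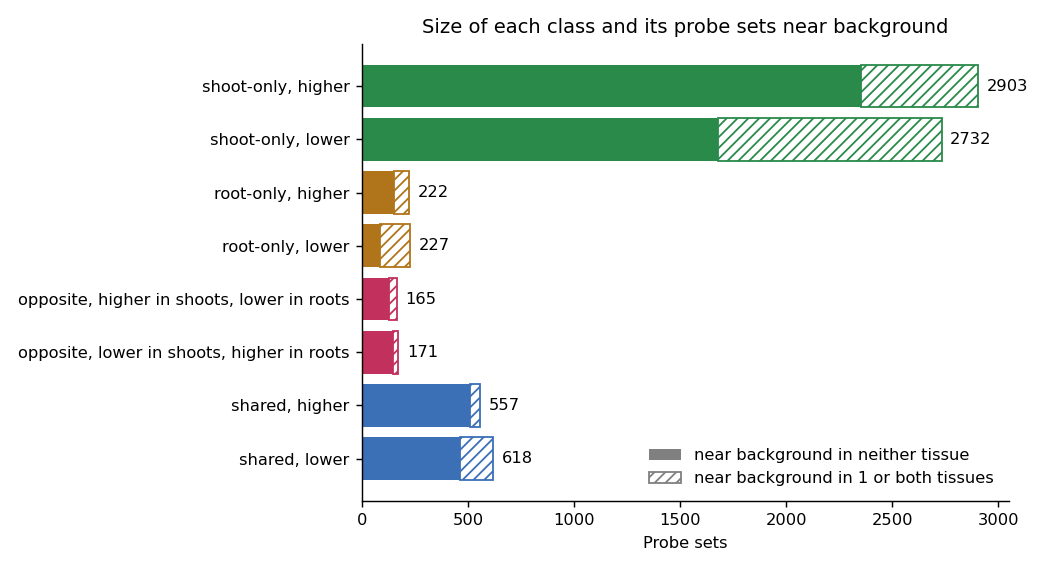
Bars give the number of probe sets in each class and direction, with the hatched end showing those near background in 1 or both tissues. The 2732 shoot-only falls hold a larger hatched part than the 2903 shoot-only rises, and the 227 root-only falls than the 222 root-only rises.

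Among probe sets with 1 gene, the largest shoot-only rises that were near background in neither tissue belonged to genes of glycosylation, mitochondrial protein folding and calcium binding. UGT76B1 encodes a glycosyltransferase that acts on isoleucic acid and salicylic acid. Its signals in shoots were 38.6 and 1.303 at 0.25 h and 668.5 and 718.7 at 6 h, and in roots 425.4 and 473.9 at 0.25 h and 466.4 and 368.5 at 6 h. The shoot signals at 6 h lay above all 4 root signals, and the root groups overlapped. The tissue difference was 5.05 ± 0.55 (standard error, limma adjusted p = 1.43e-06). Because the 2 shoot arrays at 0.25 h disagreed, the value was 6.13 without replicate 1 and 3.98 without replicate 2. AT5G51440, a mitochondrial small heat shock protein, had 21.3 and 18.5 at 0.25 h and 746.1 and 659.4 at 6 h in shoots. In roots it had 50.4 and 48.3 at 0.25 h and 59.7 and 45.6 at 6 h, with overlapping groups, and its difference was 4.52 ± 0.24. AT3G47480, an EF-hand calcium-binding protein, went in shoots from 83.0 and 9.66 to 523.3 and 636.7, while in roots its signals were 59.99 and 47.2, then 40.2 and 26.3. The root groups lay apart, but their change of -0.57 was not called. Its difference was 4.37 ± 0.61, or 5.50 without replicate 1 and 3.24 without replicate 2 of the 0.25 h shoots.

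Near background in roots were AT4G34950, of the major facilitator superfamily of transporters, and AT3G48640. The first had shoot signals of 5.62 and 10.1 at 0.25 h and 575.2 and 578.9 at 6 h, and its difference was 4.99 ± 0.25 (limma adjusted p = 1.55e-11). Its root signals stayed between 13.1 and 20.5. AT3G48640 went in shoots from 94.7 and 16.1 to 908.5 and 887.3, again with unequal 0.25 h arrays. Its difference was 4.63 ± 0.54, and 5.64 or 3.62 without the first or the second of these arrays. Its root signals of 37.3 and 27.2, then 25.8 and 14.8, lay apart without a call.

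Of the shoot-only falls near background in neither tissue, AT3G19030 had the largest difference among those with 1 gene. In shoots its signals were 2229 and 2184 at 0.25 h and 235.5 and 216.5 at 6 h, and in roots 551.1 and 501.1, then 464.3 and 448.6. The root groups did not overlap either, but the root change of -0.20 was not called, and the tissue difference was -3.04 ± 0.13 (limma adjusted p = 2.09e-12). AT1G55960, of the START-like superfamily of lipid-binding proteins, fell in shoots from 1357 and 1520 to 274.4 and 280.1, with root signals between 79.4 and 101.2. AT1G33055 fell in shoots from 54.7 and 43.5 to 1.61 and 1.94, while its root signals were 231.9 and 327.9 at 0.25 h and 347.7 and 396.4 at 6 h, apart but with no call. The differences of these genes were -2.59 ± 0.13 and -2.78 ± 0.35. With the roots near background, AT5G48490, a lipid-transfer protein related to DIR1, fell in shoots from 1648 and 1762 to 78.6 and 84.4, and AT3G28270 fell from 522.0 and 497.1 to 53.8 and 41.9. Their root signals were at most 20.5 and 3.28, so their differences of -4.02 ± 0.32 and -3.34 ± 0.20 rest on the shoots.

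Root-only rises had a median root change of 0.55 in 222 probe sets, against a median shoot change of 0.86 for the shoot-only rises. PDF2.1, a plant defensin, was the largest of the named ones. Its root signals were 36.3 and 45.9 at 0.25 h and 397.5 and 397.6 at 6 h, a rise of 3.01 ± 0.18. On the 4 shoot arrays it gave 0.27 to 1.76 in no order by time, and the tissue difference was -3.004 ± 0.25 (limma adjusted p = 1.12e-08). AT1G49570, a class III peroxidase that was likewise near background in shoots, had root signals of 27.3 and 35.5, then 115.5 and 106.2. Near background in neither tissue by the rule were UGT73B1, a UDP-glycosyltransferase, ATL8, a RING-H2 ubiquitin ligase, and AT5G61590, the wax-repressing transcription factor DEWAX. AT5G61590 had root signals of 256.3 and 251.0 at 0.25 h and 434.8 and 511.9 at 6 h, and shoot signals of 344.4 and 390.4, then 314.0 and 297.7. The shoot groups lay apart in the other direction, but their change of -0.25 was not called. The tissue differences of the 3 genes were -1.36, -1.27 and -1.13. ATL8 lay close to the line, with shoot signals of 35.8 and 42.4, then 20.9 and 33.8, and root signals of 38.9 and 38.2, then 85.9 and 69.6. With 24 h as reference UGT73B1 (-0.43), ATL8 (-0.53) and AT1G49570 (-0.19) were not called by limma (adjusted p = 0.296, 0.163 and 0.721).

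Root-only falls had a median root change of -0.81 in 227 probe sets. GRX480, a glutaredoxin that binds TGA transcription factors, had root signals of 308.3 and 256.9 at 0.25 h and 72.4 and 74.9 at 6 h. In shoots it gave 117.0 and 26.2, then 91.7 and 125.4, so the shoot groups overlapped and its difference of 2.60 ± 0.50 ran from 1.69 to 3.51 when either 0.25 h shoot array was left out. AT2G32030, an N-acetyltransferase of the GNAT family, fell in roots from 131.1 and 109.4 to 32.7 and 30.7, while its shoot signals were 75.2 and 76.8, then 82.7 and 100.9. GH3.3, which conjugates auxin to amino acids, fell in roots from 445.3 and 408.5 to 96.3 and 101.4. Its shoot signals of 82.3 and 48.1 at 0.25 h and 46.4 and 47.3 at 6 h did not give a call. The differences of the latter genes were 1.89 ± 0.21 and 1.64 ± 0.46. In the set near background in shoots, AT4G20000 fell in roots from 182.4 and 196.7 to 45.0 and 48.7, and AT3G12900, the scopoletin 8-hydroxylase of coumarin synthesis, from 118.7 and 63.2 to 18.0 and 13.2. The root-only class depended on the reference. With the 24 h arrays in place of the 0.25 h arrays, 79 of its 449 probe sets came out root-only again, against 3433 of 5635 (60.9%) for the shoot-only class. GRX480 then had a difference of 0.95 and GH3.3 of 0.43, neither called by limma (adjusted p = 0.183 and 0.563), and AT3G12900 had -0.26.

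The opposite class held 165 probe sets that rose in shoots and fell in roots and 171 that did the reverse. Its 336 members depended on each root array, at 131 to 207 with any 1 of the 4 left out, and the 8 arrays fitted alone gave 170. In 334 of the 336 the 6 h arrays lay apart from the 0.25 h arrays in both tissues, and 18 changed at least 2-fold in both. The class was called on these same arrays, so their separation is not further support. AT5G22530 rose in shoots from 19.8 and 5.16 to 177.4 and 240.1 and fell in roots from 55.1 and 42.6 to 13.98 and 11.1. AT5G52760, a protein with a heavy-metal-associated domain, had the largest root fall of the named genes, from 143.2 and 150.0 to 8.59 and 8.46, a change of -3.11 ± 0.24. In shoots it rose from 239.6 and 102.1 to 449.6 and 499.6, and the tissue difference was 4.64 ± 0.34 (limma adjusted p = 2.16e-09). AT1G43910, an AAA-type ATPase, rose in shoots from 77.6 and 30.3 to 708.5 and 784.0 and fell in roots from 210.6 and 219.5 to 109.1 and 107.9. In these 3 genes replicate 1 of the 0.25 h shoots was the higher one, and without replicate 2 the differences were 4.27, 4.07 and 4.04. Of the opposite probe sets, 66 (19.6%) stayed in the class with the 24 h arrays as reference.

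In the reverse direction, AT4G10270, of a wound-responsive protein family, fell in shoots from 49.9 and 66.9 to 6.42 and 10.1 and rose in roots from 71.4 and 72.9 to 239.7 and 194.5. Its tissue difference was -3.39 ± 0.28 (limma adjusted p = 1.06e-08). AT3G23880, an F-box protein, fell in shoots from 199.8 and 249.9 to 41.4 and 44.2, while the roots went from 31.7 and 46.7 to 65.5 and 66.7. AT4G33666 fell in shoots from 938.2 and 809.0 to 330.4 and 285.7 and rose in roots from 39.5 and 29.6 to 81.5 and 85.0. The arrays of the 2 times did not overlap in either tissue for these 3 genes, which was a condition for naming them.

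Of the probe sets called in roots, 1511 (66.4%) were also called in shoots, which is 14.7% of the shoot calls. Over all probe sets, 21.8% were called upward and 23.3% downward in shoots, and 4.71% and 5.29% in roots. Of the 1511, 77.8% had the same direction in both tissues. With the 24 h arrays as reference, 377 of the 1175 shared probe sets (32.1%) stayed in the class. The tissue difference was called for 539 of the 1175. Where they rose, the rise was larger in shoots in 277 and in roots in 7, and where they fell, the fall was larger in shoots in 230 and in roots in 25. AT2G04050 and AT2G04070, MATE efflux carriers, led the shared rises by size of the difference. They are close relatives, and their signals may not be fully separate. AT2G04050 gave 1.59 and 2.90, then 876.2 and 861.9 in shoots, and 8.55 and 6.17, then 19.4 and 20.9 in roots, where it was near background. Its changes of 6.22 ± 0.16 and 0.81 ± 0.16 differed by 5.40 ± 0.23 (limma adjusted p = 2.09e-12). AT2G04070 gave 15.6 and 11.1, then 981.3 and 934.7 in shoots, and 23.4 and 12.2, then 90.6 and 61.0 in roots. Among shared falls, AT1G65490 went from 2143 and 2271 to 166.1 and 170.6 in shoots and from 21.4 and 18.5 to 8.78 and 9.12 in roots, with a difference of -2.97 ± 0.18. AT4G27657 had a shoot change of -3.03 and a root change of -0.95.

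For the other 636 shared probe sets the tissue difference was not called. AT4G33980, known as COR28 and a regulator of the circadian clock and light signalling, rose from 0.34 and 0.45 to 36.8 and 44.9 in shoots and from 12.7 and 6.76 to 93.4 and 99.7 in roots. Its changes were 2.33 ± 0.17 and 2.48 ± 0.17, and the difference of -0.14 ± 0.24 had an adjusted p of 0.726 in limma. This value depended on how weak signals were treated: it was -0.46 with the median signal as the pseudocount and 3.32 with none, both called. AT1G11210 rose by 2.26 in shoots and 2.60 in roots. ATPMEPCRB, a pectin methylesterase, went from 75.7 and 82.0 to 7.51 and 15.4 in shoots and from 164.4 and 116.7 to 25.4 and 21.3 in roots. The RING finger protein AT1G20823 went from 136.0 and 172.0 to 21.0 and 18.7 in shoots and from 182.5 and 201.1 to 41.5 and 40.1 in roots. The differences of these genes were 0.08 ± 0.25 and -0.47 ± 0.20. Both were called with 24 h as reference, at 0.77 and, with the sign turned, 0.91, and AT1G20823 was also called with no pseudocount (-0.72) and without shoots 0.25 h replicate 1 (-0.63). A difference that misses the threshold does not show that the 2 tissues changed alike.

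**Figure D3:**
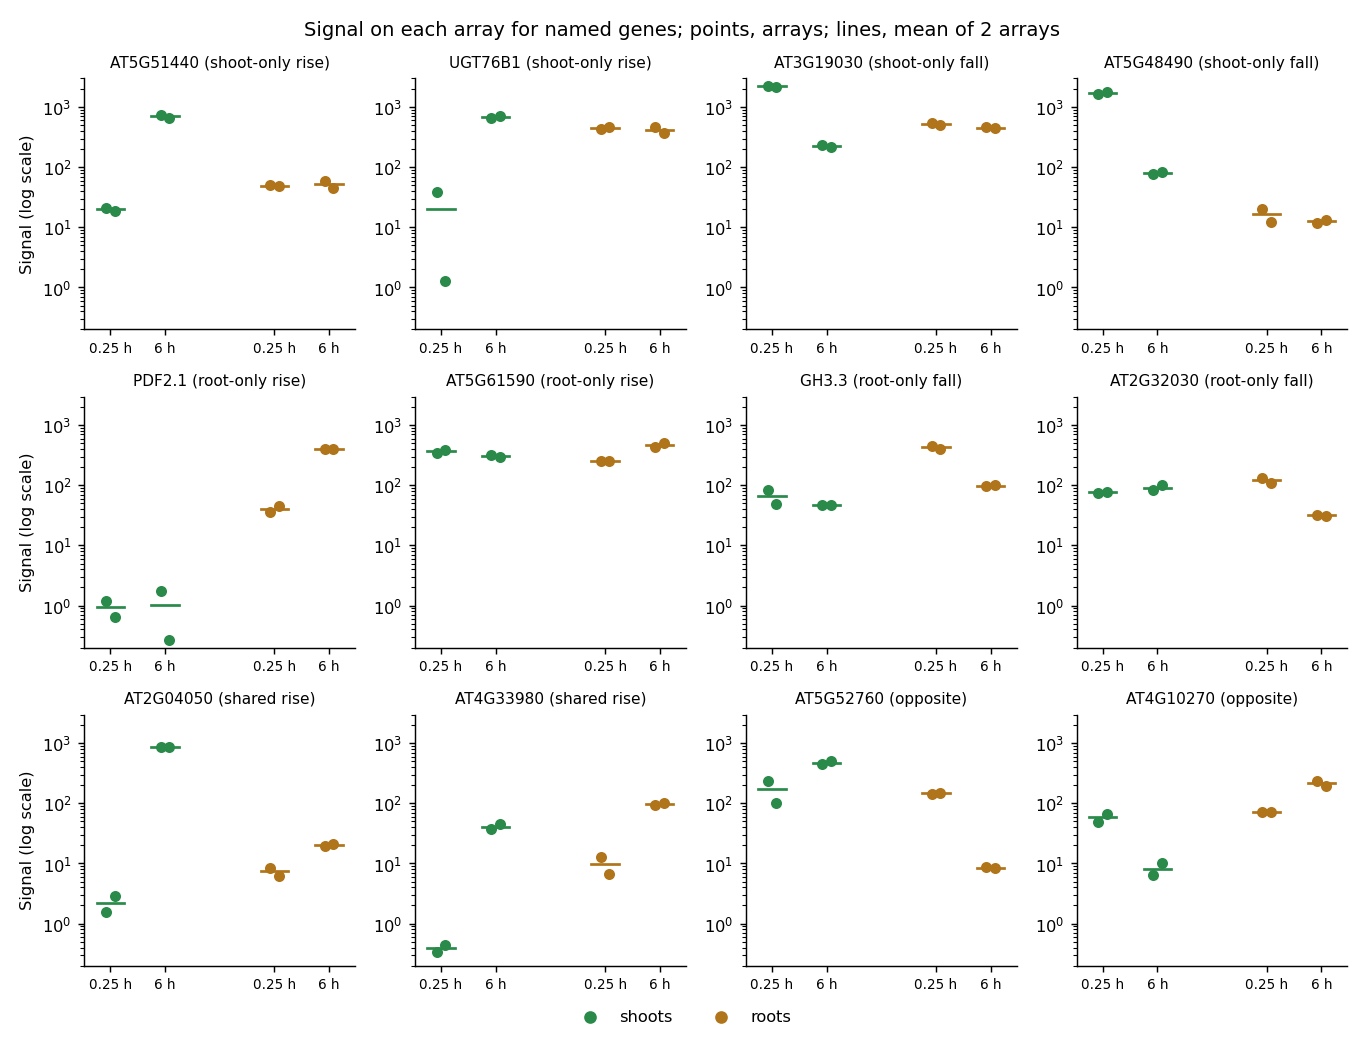
Signals of 12 named genes on each of the 8 arrays, on a log axis, with points for arrays and lines for the mean of 2 arrays; shoots are green and roots brown. UGT76B1 and AT5G52760 show the unequal 0.25 h shoot arrays, while the roots of UGT76B1 stay between 368.5 and 473.9 and those of AT5G52760 drop to 8.46 and 8.59.

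Gene lists put these classes in context. They were chosen with earlier results of these data known, and 27 of 35 had measured members that could be named. Measured members are here those with a probe set annotated with 1 gene, so a list can hold a small part of its genes. These were 4 of 13 loci written for the mitochondrial dysfunction response and 5 of 19 for the unfolded protein response. They were 11 of 57 for photosynthesis and 3 of 23 for the circadian clock. Members given beyond the 2 of each list with the largest moderated t were chosen after their values were seen. For comparison, over all probe sets the median tissue difference was 0.01 and the difference was called upward in 16.5% and downward in 15.4%. The changes themselves were called upward in 21.8% and downward in 23.3% in shoots, and in 4.71% and 5.29% in roots. Counts of members near these shares are not results about a list. All 4 measured genes of the mitochondrial dysfunction response, which reports on impaired respiration, had a called positive difference, with a median of 3.17. Besides AT5G51440 these were NDB2, an alternative NADH dehydrogenase, AT2G21640 and AT5G09570. NDB2 rose in shoots from 85.2 and 49.0 to 652.3 and 797.0, while its root signals were 210.6 and 190.4, then 197.4 and 169.6. AT2G21640 was shared and rose by 4.88 in shoots and 1.96 in roots. Leaving out any 1 array kept all 4 calls.

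All 5 measured genes of the unfolded protein response also had a called positive difference, with a median of 1.38. They were the membrane-bound transcription factors BZIP28 and BZIP60, the chaperones CRT1b, a calreticulin, and AT5G07340, of the calnexin family, and the co-chaperone ATERDJ3B. BZIP60 rose in shoots from 236.1 and 257.9 to 434.2 and 485.4, and its root signals were 238.8 and 225.9, then 200.5 and 201.8. CRT1b rose in shoots from 507.5 and 401.7 to 858.6 and 939.5, and fell in roots from 728.0 and 728.8 to 603.9 and 496.9. Their differences were 1.07 ± 0.15 and 1.38 ± 0.18, and those of the other 3 lay between 0.94 and 1.65. Of the 3 heat shock genes, AT5G48570, a peptidyl-prolyl isomerase of the FKBP family, had a difference of 3.17 ± 0.24. It rose in shoots from 82.9 and 58.2 to 586.7 and 543.2.

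Among 51 UDP-glycosyltransferases the difference was called upward in 16, above the 16.5% over all probe sets, and downward in 6, below the 15.4%, and 11 were shoot-only rises and 4 shoot-only falls. UGT73C1 was at 2.39 and 0.90 in shoots at 0.25 h and at 104.8 and 91.1 at 6 h, while in roots it was at most 0.42 at these times. UGT73B4 rose in shoots from 1.98 and 0.84 to 65.4 and 48.9, below its root signals of 109.7 to 140.1. UGT76C2, a cytokinin glucosyltransferase, had a difference of -1.76 ± 0.23. Of 14 glutathione transferases, 6 fell, 1 rose and 7 had no call in shoots, and 3 fell in roots. GSTU18 fell in shoots from 306.1 and 312.3 to 63.4 and 71.8, with roots near background, and its difference was -1.87 ± 0.15. GSTU25 rose in shoots from 0.52 and 0.45 to 17.0 and 19.0, with root signals of 176.8 to 207.7. Of 24 cytochromes P450, 5 differences were called upward and 3 downward, close to the shares over all probe sets, and CYP71B23 (2.77 ± 0.50) and CYP71B26 (1.82 ± 0.21) were the named ones. The 2 CYP71B23 shoot signals at 0.25 h were 97.5 and 18.0, and its difference was 1.79 without replicate 2 there. Of the 3 MATE carriers, AT5G52050 fell in both tissues with a difference of -1.04 ± 0.31. Its call, the 1 downward call of the list, was lost with 24 h as reference and in 4 of the 8 fits that left out 1 array: roots 0.25 h replicate 2, roots 6 h replicate 2, shoots 0.25 h replicate 1 or shoots 6 h replicate 2.

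Photosynthesis genes went down with the shoots. Of 11 measured genes, 9 fell in shoots, 0 changed in roots by the same limma test, and 7 had a called negative difference. The median difference was -0.77. SBPASE, sedoheptulose bisphosphatase of the Calvin cycle, fell in shoots from 3435 and 3688 to 1533 and 1413 and gave 17.8 to 21.2 in roots. PSAN, a subunit of photosystem I, fell from 3789 and 4113 to 1936 and 1952. Their differences were -1.19 ± 0.18 and -0.77 ± 0.16. The count of 7 depended on the scaling, being 9 after centring of arrays, 2 after quantile normalization between all arrays and 3 within each tissue, all downward. With 24 h as reference it was 3, with a median of -0.29, and PSAN was not called (-0.21, adjusted p = 0.406 in limma). Among 69 plastid-encoded transcripts, 41 fell and 1 rose in shoots, 20 differences were called downward, 0 upward, and the median was -0.33. The named ones were rpl22 and rpl36, of ribosomal proteins of the plastid, with -1.08 ± 0.21 and -0.85 ± 0.16. With 24 h as reference these were -0.33 and -0.19, neither called, and the list had 11 downward calls and 1 upward. Quantile normalization between all arrays gave 8 downward and 3 upward, and leaving out roots 6 h replicate 2 gave 9 downward. Chlorophyll genes split, since PORB, a protochlorophyllide reductase, rose in shoots from 237.7 and 194.3 to 1096 and 1146. CHLM, a methyltransferase of chlorophyll synthesis, fell there from 1591 and 1840 to 738.7 and 612.2 and rose in roots from 88.2 and 87.7 to 106.2 and 119.1. Their differences were 2.34 ± 0.28 and -1.66 ± 0.13.

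Of the UV-B photoreceptor pathway 1 gene was measured and named. HYH, the bZIP factor that acts with HY5, fell in both tissues, in shoots from 220.7 and 231.3 to 75.6 and 60.9 and in roots from 78.2 and 83.5 to 59.8 and 56.8. Its difference was -1.19 ± 0.19 (limma adjusted p = 3.48e-05). Of 8 flavonoid and phenylpropanoid genes, 5 fell and 1 rose in shoots, 0 rose and 1 fell in roots, and differences were called downward in 2 and upward in 1. CHIL, a chalcone isomerase-like protein, fell in shoots from 93.5 and 88.4 to 16.3 and 23.6, with root signals of 162.1 to 278.9, and its difference was -2.26 ± 0.28. UGT84A3, which joins glucose to hydroxycinnamic acids, rose in shoots from 30.9 and 23.4 to 135.6 and 127.5, with the roots near background. All 3 measured clock-related genes rose in both tissues. GI, a clock component, rose by 2.43 in shoots and 1.01 in roots, a difference of 1.42 ± 0.13. COR27 rose by 1.80 and 2.54, with shoots near background, and its difference was -0.75 ± 0.23. This difference was not called by limma after quantile normalization between all arrays (-0.53, adjusted p = 0.0828) or with no pseudocount (-0.37, adjusted p = 0.857). It was -0.58 without shoots 6 h replicate 1 and -0.70 without roots 6 h replicate 2.

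Of 4 rapid stress and touch genes, 3 fell in both tissues and WRKY6 rose in shoots. STZ, a zinc finger repressor, went from 1544 and 1591 to 171.0 and 209.2 in shoots and from 917.6 and 1161 to 227.3 and 232.5 in roots, and its difference was -0.87 ± 0.20. The difference of STZ was not called after quantile normalization between all arrays (-0.40), and turned with 24 h as reference (1.18). WRKY53 fell more in roots, from 217.8 and 219.4 to 29.5 and 34.5, than in shoots, from 279.8 and 224.0 to 74.0 and 77.9. WRKY6 rose in shoots from 11.7 and 7.07 to 89.3 and 104.7, toward the 108.8 to 134.5 that it held in roots, and its difference was 2.69 ± 0.20. Over 8 calcium sensors and kinases, the difference was called upward in 3 and downward in 1. CML41 rose in shoots from 50.0 and 32.0 to 278.1 and 276.3. For the calmodulin-like proteins AT1G76640, near background in both tissues, and CML37, the positive differences of 1.16 and 1.44 came with falls in roots. With 24 h as reference AT1G76640 was at -0.0016.

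Hormone lists held calls in both directions. Of 15 auxin genes, 5 fell in shoots and 5 in roots, and differences were called in 1 upward and 3 downward. The named members besides GH3.3 were IAA18 (-0.81 ± 0.14) and IAA29 (-0.96 ± 0.22), auxin response repressors that fell in shoots. Of 12 jasmonate and defensin genes, differences were called upward in 2 and downward in 4. PDF1.2b fell in shoots from 1459 and 623.3 to 109.6 and 78.9 and was near background in roots, with a difference of -3.26 ± 0.45. Its close relative PDF1.2 fell from 1184 and 273.1 to 87.0 and 72.6, and these 2 genes may share signal on the array. OPCL1, a ligase of jasmonate synthesis, rose in shoots from 173.0 and 156.4 to 252.9 and 312.3 and fell in roots from 182.1 and 166.5 to 96.8 and 96.5. All 4 measured genes of the abscisic acid, dehydration and cold list rose in shoots and 2 in roots. COR15B (2.06 ± 0.34) and LTI30 (1.49 ± 0.24) had called differences.

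Growth and wall genes fell more often in shoots than in roots, as did probe sets over all (23.3% and 5.29%). Of 29 expansins and xyloglucan endotransglucosylases, which loosen and rebuild the wall, 15 fell and 0 rose in shoots, and 4 fell and 1 rose in roots, by limma. Differences were called downward in 7 and upward in 2. The median difference was -0.36, and -0.04 with 24 h as reference, where the counts of calls were the same. Near background were 18 of the 29 in shoots and 13 in roots. EXPA8 fell in shoots from 385.2 and 429.0 to 100.6 and 57.6, with roots near background. EXGT-A3 fell in shoots from 770.5 and 752.8 to 323.2 and 311.3, and its root groups overlapped. Both upward differences came from roots, where EXLA3 fell from 117.3 and 94.7 to 15.8 and 13.1 and EXPB2 from 103.7 and 138.1 to 28.6 and 18.3. With 24 h as reference the EXLA3 difference turned and was called (-0.53). Of 3 glucosinolate genes, BCAT4, which starts the elongation of methionine, fell in shoots from 797.3 and 880.8 to 248.8 and 207.8, and its difference was -1.47 ± 0.24. The glucosyltransferase AT2G31790 had -1.27 ± 0.19. Of 6 class III peroxidases, AT5G64120 rose in shoots from 62.0 and 33.9 to 400.6 and 410.7, near its root signals of 260.4 to 391.3. Its difference was 2.54 ± 0.25. Of 14 nutrient transporters, 8 fell and 1 rose in shoots, 2 fell in roots, and 3 differences were called downward and 1 upward. Of 18 mitochondrion-encoded probe sets, 4 differences were called upward and 0 downward, close to the upward share over all probe sets, the largest for cox2 (1.61 ± 0.29). There were 2 upward with 24 h as reference, and 3 upward and 3 downward without roots 6 h replicate 1. PRL and NAC014, the genes of the cell cycle and NAC lists that could be named here, had no called difference.

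**Figure D4:**
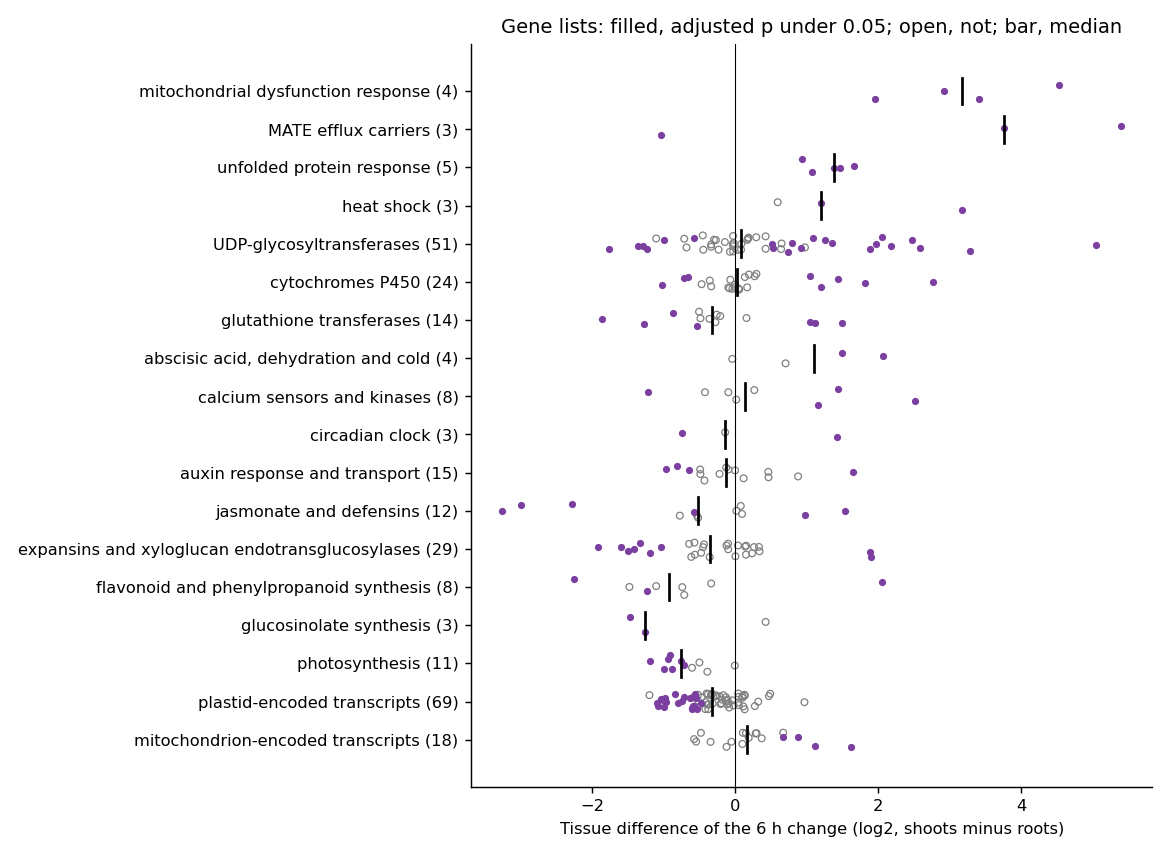
Tissue difference of the 6 h change (log2, shoots minus roots) of each member of 18 gene lists, with the number of probe sets in brackets, filled points for an adjusted p under 0.05 and a bar at the median. The mitochondrial list (median 3.17) and the unfolded protein response (1.38) lie wholly to the right, photosynthesis (-0.77) to the left, and the glycosyltransferases (0.08) spread to both sides.

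The classes were sorted at 6 h, so a larger median change there than at other times follows in part from the sort. The same holds for medians near 0 in the other tissue at 6 h. Medians of the change from 0.25 h in shoots for the 2903 shoot-only rises were 0.11 at 1 h, 0.55 at 3 h, 0.86 at 6 h, 0.40 at 12 h and 0.19 at 24 h, while the roots stayed between -0.03 and 0.05. The 227 root-only falls were at -0.29 at 1 h, -0.73 at 3 h, -0.81 at 6 h and still -0.57 at 24 h in roots. All these values share the 0.25 h arrays with the sort.

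**Figure D5:**
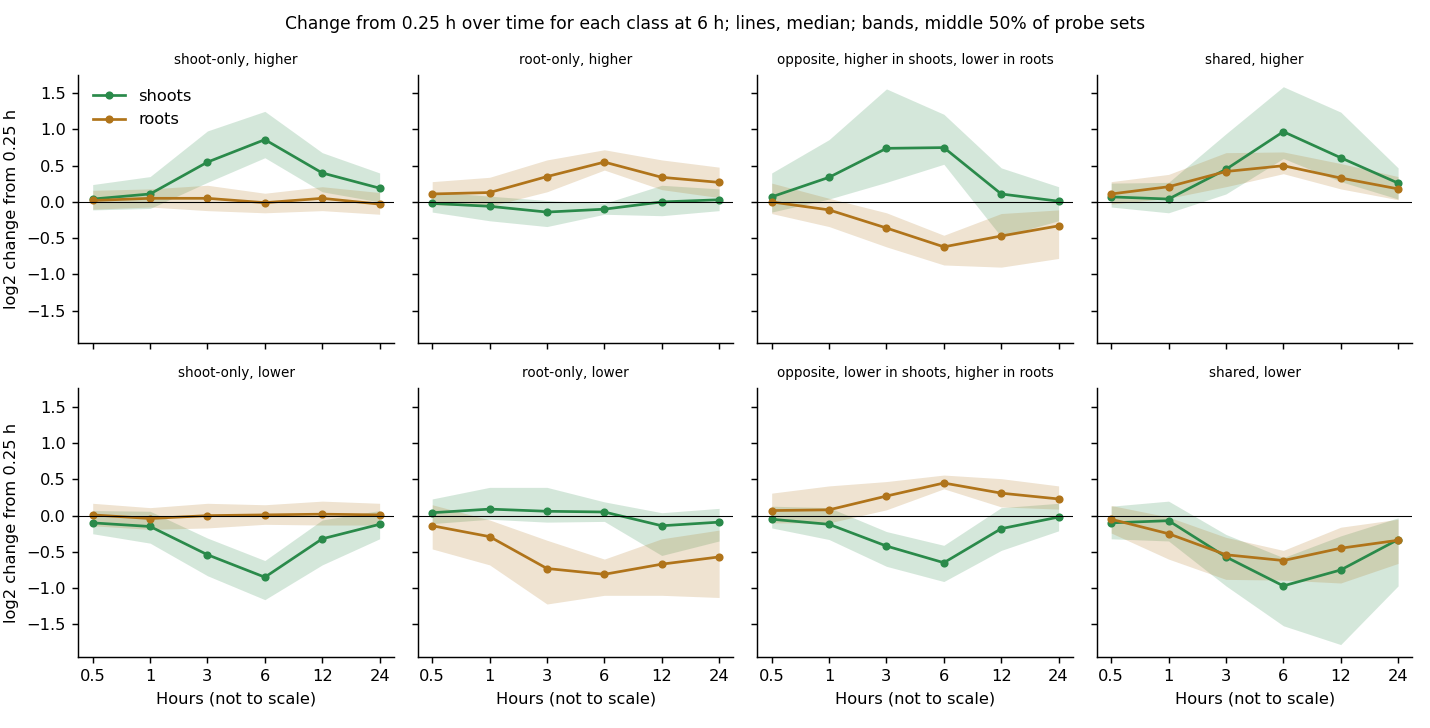
Median log2 change from 0.25 h (lines) and the middle 50% of probe sets (bands) in shoots and roots for each class defined at 6 h, against hours spaced evenly. Shoot-only rises have a median of 0.86 at 6 h, the time of the sort, and of 0.19 at 24 h, while root-only falls remain at -0.57.

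Arrays of other times gave the same tissue contrast with means that the sort did not use, although all 28 arrays shared 1 estimate of the spread. The change from 24 h to 3 h, in shoots minus roots, was called upward in 10.2% and downward in 11.6% of all probe sets. Of the 2903 shoot-only rises 35.1% were called upward and 4.2% downward, with a median of 0.28. Among the 2732 shoot-only falls 41.1% were called downward and 2.53% upward. Root-only rises and falls gave 34.2% downward and 37% upward. The opposite class was the most often called in its own direction, with 61.2% upward among the 165 that rose in shoots and 57.3% downward among the 171 that fell there. At 12 h against 24 h the shares over all probe sets were 6.17% upward and 7.1% downward. By then 15.4% of shoot-only rises were called upward and 22.8% of shoot-only falls downward, and the root-only falls no longer leaned upward, with 14.5% upward and 17.2% downward.

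The same arrays were then read 1 tissue at a time. Over all probe sets, the shoots were higher at 3 h than at 24 h in 14.1% and lower in 17.5%, and the roots in 6.48% and 6.3%. Of the shoot-only rises 51.2% were higher in shoots and 12.7% in roots, so 368 of the 2903 were higher in roots at 3 h. AT5G51440 was such a case by its values, with root signals of 304 and 308 at 3 h between 50.4 and 48.3 at 0.25 h and 59.7 and 45.7 at 6 h. In shoots it had 896 and 800 at 3 h, above both 6 h arrays. NDB2, likewise shoot-only at 6 h, had root signals of 372 and 401 at 3 h, above every root signal of 0.25 h and 6 h. UGT73C1 in contrast gave 91.6 and 82.3 in shoots and 0.766 and 0.479 in roots at 3 h. Of the root-only rises 38.3% were lower in shoots and 20.7% higher in roots from 24 h to 3 h. Of the root-only falls 32.6% were higher in shoots and 16.3% lower in roots. In the opposite class the calls lay mainly in the shoots. Of the 165 that rose in shoots at 6 h, 65.5% were higher in shoots, but the roots were lower in 15.2% and higher in 14.5%. Of the 171 that fell there, 63.2% were lower in shoots, and the roots were higher in 19.3% and lower in 12.3%.

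Named genes differed in how they held up in these other arrays. AT5G51440 (2.44 ± 0.24 at 3 h against 24 h), UGT73C1 (2.24 ± 0.22), WRKY6 (2.75) and AT5G22530 (3.301) were called upward again by limma, and AT5G48490 (-2.44), PDF2.1 (-2.003), CHIL (-3.05) and AT4G33666 (-4.10) downward. UGT76B1 was at -0.07 with a limma adjusted p of 0.955, and its shoot signals were 49.3 and 53.3 at 3 h and 30.0 and 32.7 at 12 h, far below the 668.5 and 718.7 of 6 h. Of the named genes with a called difference at 6 h, 5 were called in the other direction at 3 h against 24 h. They were AT1G49570 (1.32), STZ (3.22), AT3G19030 (0.40), GI (-0.40) and nad1 (-0.80). At 12 h against 24 h this held for AT1G49570 (1.66), STZ (0.59) and nad1 (-0.72). It also held there for AT5G52760 (-1.61), GH3.3 (-1.42), COR27 (1.87) and EXLA3 (-0.92). STZ remained at 919 and 808 in shoots at 3 h, when the roots were down to 212 and 285.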

How the data were processed

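The 28 arrays were deposited as signal intensity values made by the authors with MAS5, per the submitters' processing notes; the version is not given in the sources used here. Of 22810 probe sets, 64 controls were left out. Of the 22746 analysed, 13513 were annotated with 1 gene (13508 matched the reference table), 503 with several and 8730 with none. No transcript or promoter sequence was used here.

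Signals were converted to log2(signal + 9.58), the 25th percentile of all signals, without further scaling. Group means of 14 tissue and time groups were fitted to all 28 arrays (14 residual degrees of freedom) with limma 3.58.1 in R 4.3.3, with trend and robust options. The tissue difference, (shoots 6 h - shoots 0.25 h) - (roots 6 h - roots 0.25 h), and the change in each tissue were tested on both sides. Benjamini-Hochberg adjustment ran over all probe sets, with calls at an adjusted p under 0.05. Summaries used Python 3.11.15, pandas 2.3.3 and numpy 2.4.6, and the procedure was tested on simulated data. The number of arrays limits the precision.

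Probe sets with 1 gene were named by size of the tissue difference within each class. For shoot-only and root-only changes in each direction, 3 near background in neither tissue and 2 near background in the other tissue were named. The opposite class gave 3 each way. Shared changes gave 2 each way with the difference called and 2 each way with it not called. The latter were ranked by the smaller of their 2 changes. Each gene list gave up to 2 members by moderated t. The comparison, its classes and the lists were chosen with earlier results of these data known. Alternatives were other pseudocounts, scalings, filters, references, blocks, folds, background lines and array sets.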

Additional observations from a re-analysis of the deposited data

Results flagged for a closer look

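The tissue difference of the 6 h change was itself the tested quantity, and each result here is listed because limma called that difference. It was called upward for 3757 and downward for 3513 probe sets. Values below are log2 differences, shoots minus roots.

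Among shoot-only rises the differences were 5.05 for UGT76B1, 4.52 for AT5G51440, 4.37 for AT3G47480, 4.99 for AT4G34950 and 4.63 for AT3G48640. Among shoot-only falls they were -3.04 for AT3G19030, -2.78 for AT1G33055, -2.59 for AT1G55960, -4.02 for AT5G48490 and -3.34 for AT3G28270.

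Root-only rises gave -1.36 for UGT73B1, -1.27 for ATL8, -1.13 for AT5G61590, -3.004 for PDF2.1 and -1.74 for AT1G49570. Root-only falls gave 2.60 for GRX480, 1.89 for AT2G32030, 1.64 for GH3.3, 2.19 for AT4G20000 and 1.98 for AT3G12900.

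Shared changes that differed in size gave 5.40 for AT2G04050, 3.75 for AT2G04070, -2.97 for AT1G65490 and -2.09 for AT4G27657. Opposite changes gave 4.77 for AT5G22530, 4.64 for AT5G52760, 4.61 for AT1G43910, -3.39 for AT4G10270, -2.80 for AT3G23880 and -2.56 for AT4G33666.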

How the results depend on the processing

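Each group held 2 arrays. Weak signals may have limited what could be called in the dimmer tissue, which was not tested. With any 1 of the 8 arrays left out, root calls ran from 1034 to 2531, shoot calls from 8637 to 10196, shared probe sets from 556 to 1231, root-only from 245 to 448, opposite from 131 to 373, shoot-only from 4896 to 5351, and called differences from 3202 to 3745 upward and 2910 to 3261 downward. Fitting the 8 arrays alone gave 1325 root calls, 695 shared, 296 root-only and 170 opposite probe sets. Requiring at least 2-fold gave 2845 shoot and 315 root calls, 2003 shoot-only, 139 shared, 101 root-only and 18 opposite probe sets, and 1528 upward and 1179 downward differences. Keeping probe sets above the array median in each tissue gave 265 root-only and 2268 downward differences, and keeping those above the 75th percentile gave 6502 shoot calls; fewer were tested in both. Setting the background line at the 40th percentile put 942 shoot-only and 20 opposite probe sets near background in roots, and at the 60th percentile 76 opposite ones, against 1469 and 42 at the median. Correlations between same-numbered replicate deviations were -0.124 to 0.0399. With 2 arrays in each group these cannot show if replicates were grown or taken as pairs, and the labels do not say. The replicate block gave 2181 root and 10166 shoot calls, and 3721 upward and 3478 downward differences. Crossing the roots 6 h numbers, an alternative chosen after seeing the data, gave 2176 root and 10171 shoot calls. Of 80 named differences, 62 kept direction and call with 24 h as reference. There the sign turned for AT1G20823 (0.91), AT1G76640 (-0.0016), AT3G12900 (-0.26), EXLA3 (-0.53) and STZ (1.18), and with no pseudocount for AT4G33980 (3.32). The cause of these changes was not tested. The comparisons of 3 h and 12 h with 24 h were also chosen after seeing the data.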
